A study of Mus musculus with 12 samples.

Results

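The trend of liver gene expression across rising curcumin dose was taken from all 12 of the study's 12 libraries, with the dose of each mouse entered as a number. The groups were control at 0 mg/kg, low at 25 mg/kg, medium at 50 mg/kg and high at 100 mg/kg, with 3 libraries each that the labels call biological replicates. All mice were wild-type C57BL/6J, 6 weeks old at the start, and all 12, the controls included, received carbon tetrachloride in olive oil (200 µL of a 7.5% solution, injected 2 times a week for 6 weeks). Curcumin was given daily by gavage for 2 weeks to the low, medium and high groups. No liver free of carbon tetrachloride was analysed here, so every level below is that of an injured liver. The labels do not say whether control mice had a gavage without curcumin. They also state 3 mice to a cage, so that cage and dose may coincide and cannot be told apart.

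Carbon tetrachloride is turned by Cyp2e1 in hepatocytes around the central vein into radicals that kill these cells. Resident macrophages (Kupffer cells) and recruited leukocytes then release cytokines, and stellate cells, which store vitamin A in healthy liver, turn contractile and lay down collagen. Curcumin, the yellow polyphenol of turmeric, is best known in such models as an inhibitor of NF-κB, the transcription factor behind many cytokine genes, and as an activator of NRF2, which drives antioxidant genes. A response that follows dose gives levels in the order of the doses, whereas a plateau, a threshold or a reversal leaves the straight line, and the dose series allows these shapes to be separated.

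The libraries held between 36015134 and 70376474 counts each, over 17197 to 21402 detected genes. Albumin, the main secreted product of hepatocytes, made up 1.35% to 10.1% of each library once mitochondrial genes and their near-identical nuclear copies were set aside, as befits liver. Transcripts of the mitochondrial genome took 58.6% to 64.2% of counts in control, 43.0% to 64.1% in low, 48.3% to 60.2% in medium, and 30.3%, 64.7% and 42.1% in high replicates 1, 2 and 3. Its mean was lowest at high, through replicates 1 and 3. High replicate 1 also held RNA of skeletal muscle: the summed level of 5 muscle markers was 124.3 CPM (library counts scaled to a common total) there against 0.156 to 1.34 CPM in the other 11 libraries. Results that rest on high replicates 1 and 3 are given with and without them.

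No gene passed edgeR in any of the 4 tests of dose. The slope, a log2 fold change per 100 mg/kg over all 12 libraries, was called for 0 of 16839 genes by edgeR's quasi-likelihood test (smallest Benjamini-Hochberg adjusted p = 0.291, shared by 20 genes). At an unadjusted p under 0.05 it counted 1853 genes (11%), 1097 higher with dose (6.51%) and 756 lower (4.49%). Departure from a straight line was called for 0 genes (smallest adjusted p = 0.885), with 607 (3.6%) at an unadjusted p under 0.05. A difference of any shape among the 4 doses was called for 0 genes (smallest adjusted p = 0.557, 1021 genes or 6.06% unadjusted). The slope among the 9 treated libraries, which leaves the controls out, was also called for 0 genes (smallest adjusted p = 0.970, 618 genes or 3.67% unadjusted, 2.55% higher and 1.12% lower). DESeq2 called 64 slopes (0.381% of its tested genes), 28 higher and 36 lower, as well as 22 departures (0.131%), 161 genes that differed among doses and 5 slopes among the treated. limma voom with library weights called 0 slopes, 0 departures and 65 genes that differed among doses. The genes below are therefore described by their levels, and none is called changed.

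The balance of slopes differed with the scaling, the model and the libraries kept. At an unadjusted p under 0.05 there were 465 genes higher and 591 lower without high replicate 1, and 826 and 556 without high replicate 3. With limma voom there were 1045 and 1063, and with the replicate number as a block 733 and 809. With scaling by library totals in place of TMM the median slope of all genes moved from 0.03 to 0.75, and at an unadjusted p under 0.05 there were 3399 genes higher and 48 lower. With the mitochondrial share as a covariate there were 393 higher and 599 lower, and without high replicates 1 and 3 there were 590 higher and 592 lower. Of the 1097 genes higher in the fit to all libraries, 178 (16.2%) kept an unadjusted p under 0.05 with the covariate and 162 (14.8%) without the 2 libraries. Of the 756 genes lower, 241 (31.9%) and 242 (32.0%) did so, and all 756 kept their sign in both. The genes lower with dose leaned less on these libraries than the genes higher, a difference that was not tested. They leaned more on the scaling. With library totals 47 of the 756 genes lower (6.22%) kept such a p, against 1095 of the 1097 genes higher (99.8%). The sign was kept there by 614 of the 756 (81.2%) and by all 1097.

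Strict ordering by dose was absent. In 0 of 16839 genes (0.0%) did every library of a dose lie beyond every library of the dose before. Ordered by group means, 1148 genes (6.82%) stepped upward at every dose, 1046 (6.21%) stepped downward, 3255 (19.3%) had a single peak at a middle dose, 3252 (19.3%) had a single trough there, and 8138 (48.3%) zigzagged. Among the 1097 genes with a higher slope at an unadjusted p under 0.05, 35.1% stepped upward throughout and 47.8% zigzagged. Among the 756 lower genes, 47.1% stepped downward throughout. Genes with an unadjusted departure p under 0.05 were troughs in 32.0% of cases and peaks in 21.3%. Since slope and order come from the same libraries, these shares describe the shapes and do not test them. Non-overlap with control is a looser measure: all libraries of a dose lay above all controls in 7.41% of genes at low, 7.61% at medium and 6.47% at high.

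Among the named genes that stepped upward at every dose was Ddit4 (ENSMUSG00000020108), which encodes an inhibitor of mTORC1 that cells make under hypoxia, energy shortage and glucocorticoids. Its level was 1.89, 1.72 and 1.32 CPM in control, 1.48, 1.37 and 4.32 CPM in low, 4.66, 2.31 and 6.57 CPM in medium, and 7.70, 6.37 and 8.54 CPM in high (libraries 1, 2 and 3 in each group, TMM-scaled). All medium and high libraries lay above all controls, and 1 low library did. The slope was 2.23 ± 0.41 log2 per 100 mg/kg (SE, edgeR adjusted p = 0.291; DESeq2 adjusted p = 0.00215), and it ran from 2.11 to 2.39 with each library left out, 1.92 with the mitochondrial share as a covariate and 2.25 without high replicates 1 and 3.

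Cebpd (ENSMUSG00000071637), a transcription factor that acts on acute phase and fat cell genes, followed the same course. It stood at 3.65, 3.46 and 2.54 CPM in control, 3.43, 4.5 and 4.82 CPM in low, 6.44, 5.0 and 5.36 CPM in medium, and 8.92, 6.81 and 5.75 CPM in high. Medium and high libraries did not overlap the controls, but overlapped each other. The log2 differences from control were 0.41 ± 0.25, 0.80 ± 0.25 and 1.16 ± 0.25 (SE) at the 3 doses, and the slope was 1.14 ± 0.23 (edgeR adjusted p = 0.291). Rasgef1b, an exchange factor for Ras-family proteins, stood at 11.7, 7.39 and 4.93 CPM in control, 13.2, 8.58 and 16.2 CPM in low, 15.3, 13.7 and 19.9 CPM in medium, and 24.3, 25.5 and 20 CPM in high. Its slope was 1.47 ± 0.31, with all high libraries above every library of the other groups. Tmem50a gave log2 differences of 0.52, 1.02 and 1.22 at the 3 doses and a slope of 1.19 ± 0.26.

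Other genes at the top of the upward slopes did not climb evenly. Ppat, the enzyme that commits to purine synthesis, was at 0.16 and 0.20 log2 above control at low and medium and at 1.03 ± 0.23 at high, where its libraries held 7.99, 7.68 and 6.59 CPM against 2.92 to 4.94 CPM in all other libraries. Its levels stood apart at 100 mg/kg, although the departure test gave an unadjusted p of 0.337. Rbm14, an RNA-binding protein of nuclear paraspeckles, instead was already at 0.67 ± 0.21 log2 at low, with 0.63 at medium and 1.10 at high. Coq7, an enzyme of ubiquinone synthesis, had a slope of 1.39 ± 0.31, and Tnfrsf1b, the TNF receptor found mainly on leukocytes and endothelium, 1.19 ± 0.28. For these 7 genes and Ddit4 (Ddit4, Cebpd, Rasgef1b, Tmem50a, Ppat, Rbm14, Coq7 and Tnfrsf1b) the slope without high replicates 1 and 3 lay between 0.92 and 2.25, and with the covariate between 0.93 and 1.92.

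Another 4 genes near the top of the upward ranking behaved otherwise. Timp2, an inhibitor of matrix metalloproteinases, held 13.5, 2.04 and 9.83 CPM in high against 1.36 to 2.14 CPM in control, so that high replicate 2 sat inside the control range. Its slope of 2.28 ± 0.52 was 0.32 without high replicates 1 and 3. Laptm4b, a lysosomal membrane protein, went from 1.33 ± 0.31 to 0.49 likewise. Tnnt3 and Mylpf, a troponin and a myosin light chain of fast skeletal muscle, held 28.9 and 19.3 CPM in high replicate 1, while the other 11 libraries held at most 0.222 and 1.06 CPM. Their slopes of 9.18 ± 1.83 and 3.89 ± 0.90 were -0.96 and 0.71 without high replicates 1 and 3.

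**Figure D1:**
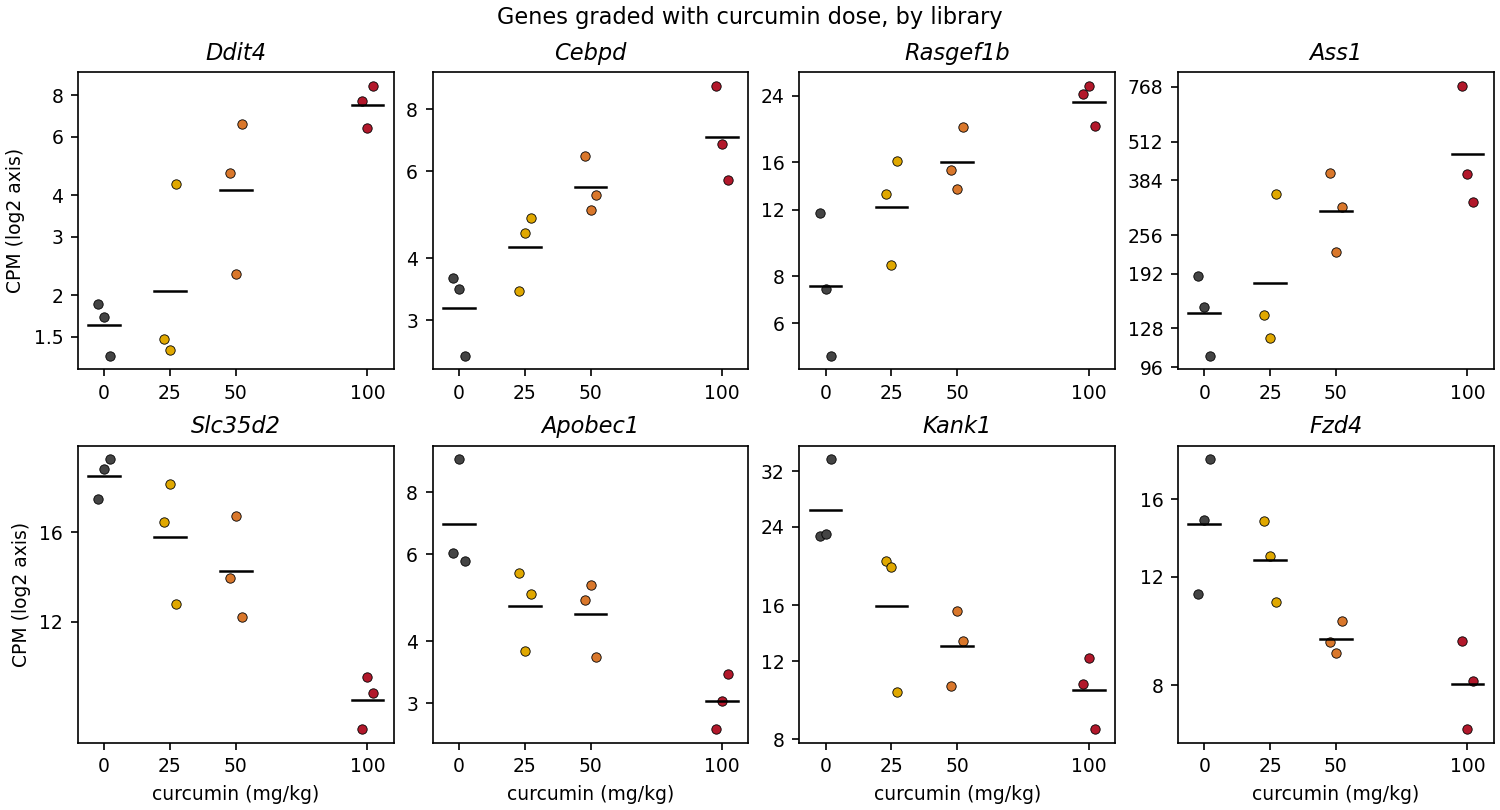
Expression by library (dots, CPM on a log2 axis) against curcumin dose, with the geometric mean of the 3 libraries of each group as a bar. In the top row (Ddit4, Cebpd, Rasgef1b and Ass1) the high libraries lie above all controls, and in the bottom row (Slc35d2, Apobec1, Kank1 and Fzd4) they lie below all controls, with the means of low and medium between.

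On the downward side Slc35d2 (ENSMUSG00000033114), a nucleotide sugar transporter of the Golgi membrane, gave the smallest p. It stood at 17.8, 19.6 and 20.2 CPM in control, 16.5, 18.7 and 12.7 CPM in low, 13.8, 16.8 and 12.2 CPM in medium, and 8.49, 10.1 and 9.56 CPM in high. The high libraries lay below those of every other group, with log2 differences from control of -0.27, -0.43 and -1.04 at the 3 doses. The slope was -1.02 ± 0.20 (edgeR adjusted p = 0.291; DESeq2 adjusted p = 0.000712), and -0.85 with the covariate.

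Apobec1, the deaminase that edits the apolipoprotein B transcript, stood at 6.04, 9.32 and 5.82 CPM in control, 5.50, 3.83 and 4.98 CPM in low, 4.85, 5.19 and 3.72 CPM in medium, and 2.66, 3.03 and 3.44 CPM in high. All 9 treated libraries lay below all controls. Its slope was -1.14 ± 0.24, and the treated libraries alone gave -0.91 ± 0.32. Kank1, which links integrin adhesions to microtubules, was at 22.9, 23.2 and 34.0 CPM in control, 20.1, 19.6 and 10.2 CPM in low, 10.6, 15.6 and 13.3 CPM in medium, and 10.7, 12.2 and 8.43 CPM in high. It too had all treated libraries below the controls, but its medium and high libraries overlapped.

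Several regulators of signalling stepped down in the same way. Fzd4, a receptor for Wnt and norrin, had log2 differences of -0.21, -0.64 and -0.87, and Nedd4l, a ubiquitin ligase for membrane channels, of -0.39, -1.01 and -1.12. Tiam2, an exchange factor for Rac, reached -1.86 ± 0.43 at high, Rassf6, a Ras-association protein of the Hippo pathway, -1.57 ± 0.37, and Pheta1, an adaptor of endosome recycling, -1.33 ± 0.32. Nab2, a co-repressor of the EGR transcription factors, was at -0.81, -0.94 and -1.21, and its slope among treated libraries was -0.54 ± 0.33. Ypel2 had the shallowest slope of the group at -0.78 ± 0.19.

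Abcb6, a porphyrin transporter, did not step down evenly. It held 16.6, 15.2 and 19.9 CPM in control and 22.4, 19.2 and 16.8 CPM in low, but 6.99, 8.95 and 6.40 CPM in high. Its slope among the treated libraries, -1.85 ± 0.37, was steeper than over all 12, -1.36 ± 0.30. H2-Ob, a chain of the class II antigen-loading regulator of B cells, was near -1 at low and medium (-1.09 and -1.03) and at -1.96 ± 0.39 at high. All 12 of these genes kept a negative slope with each library left out, with the covariate, without high replicates 1 and 3 and with scaling by library totals, where the slopes lay between -1.27 and -0.04.

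Immediate early genes, which encode transcription factors switched on within minutes of a stimulus, gave the clearest curve. Of 25 tested members, 22 had means with a single trough at a middle dose, the shape of 19.3% of all genes, and 14 had an unadjusted departure p under 0.05, where 3.6% did. That count of 14 was 6 with scaling by library totals, 8 without control replicate 3 and 5 without high replicates 1 and 3. The median log2 difference from control was -0.86 at low, -0.98 at medium and -0.16 at high, against 0.01, 0.02 and 0.03 over all genes. In 10 of 25 all low libraries lay below all controls (6.36% of all genes) and in 14 all medium libraries did (6.38%), whereas in 3 all high libraries did (6.52%). The median slope of -0.13 hides this shape. The count of troughs was 22 also with scaling by library totals, and the leave-one-out medians of the slope ran from -0.22 to 0.15. Without high replicates 1 and 3, which leaves high replicate 2 alone for its dose, the median slope was -0.77. The high libraries were split: 5, 14 and 9 of the 25 members lay below every control in high replicates 1, 2 and 3 (34.7%, 25.7% and 28.8% of all genes). Those above every control numbered 9, 4 and 4 (37.5%, 26.0% and 33.0%).

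Egr1 (ENSMUSG00000038418), a zinc finger factor induced by growth and injury signals, stood at 10.4, 9.34 and 23.6 CPM in control, 3.04, 4.41 and 1.76 CPM in low, 1.86, 3.03 and 3.11 CPM in medium, and 7.36, 5.33 and 8.43 CPM in high. Each of the 6 low and medium libraries lay below each control and high library, an arrangement found downward in 12 of 16839 genes (0.0713%). High libraries still lay below controls. The log2 differences were -2.24 ± 0.42, -2.44 ± 0.42 and -1.04 ± 0.40 (SE), and the departure had an edgeR adjusted p of 0.885 and a DESeq2 adjusted p of 0.000134.

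Fos (ENSMUSG00000021250) stood at 5.59, 3.70 and 8.85 CPM in control, 1.17, 0.419 and 0.485 CPM in low, 0.496, 0.597 and 0.810 CPM in medium, and 4.08, 0.681 and 3.38 CPM in high. High replicate 2 stayed at the level of the middle doses, while the other 2 high libraries approached the controls. Without high replicate 2 its departure was the 1 gene that passed in edgeR. Jun, the partner of Fos in AP-1, was at -1.87 and -2.03 log2 at low and medium and at -0.89 at high. Nr4a1, an orphan nuclear receptor, was at -1.54, -2.05 and -0.78. Junb stayed lower at high, at -1.57, -1.82 and -1.37, and all its treated libraries lay below all controls. Klf2 (a list member) and Rgs1, named here after their values were seen, were among the 12 genes arranged like Egr1. Handling, time of collection and stress at sampling are known to act on these genes and are not given in the labels, and their part in the result was not tested.

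Genes of TNF and NF-κB signalling had medians below control at every dose. All libraries lay below all controls in 10 of 34 members at low, 11 at medium and 7 at high (6.36%, 6.38% and 6.52% of all genes). Of the 34 tested, 25 had a slope below 0 (47.6% of all genes) and 21 were troughs (19.3%). The median slope was -0.34, and 0.35 with scaling by library totals, below the 0.75 of all genes there. Median differences were -0.55, -0.38 and -0.42 at the 3 doses, and 7 members had an unadjusted p under 0.05 for a lower slope (4.49% of all genes). Control replicate 2 moved these values: without it the median slope was -0.09, the lower members numbered 2 and the unadjusted departures 1 in place of 8 (3.6% of all genes). With the covariate 0 members were lower at that p. Tnfaip2, a TNF-induced protein, held 7.85, 17.5 and 13.9 CPM in control, 3.71, 2.71 and 4.56 CPM in low, 4.34, 4.10 and 4.0 CPM in medium, and 5.72, 6.51 and 4.23 CPM in high. All treated libraries lay below the controls, and low was the lowest group. Cxcl1, a chemokine for neutrophils, had a slope of -1.51 ± 0.52 but zigzagged, with -1.18, -0.41 and -1.78 at the 3 doses. Relb was at -1.16, -0.92 and -1.06, a step with no grading, and Bcl3, a nuclear IκB protein, at -0.58, -1.27 and -1.05. Tnfrsf1b went the other way, as given above.

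The factors at the centre of the pathway had shallow slopes. Nfkb1 had a slope of -0.31 ± 0.22, Rela -0.18 ± 0.23 and Nfkbia, the inhibitor that NF-κB itself induces, 0.28 ± 0.20. The slopes of Nfkb1 and Rela were 0.36 and 0.43 with scaling by library totals, below the 0.75 of all genes there, and that of Rela was also above 0 with the covariate (0.14) and without high replicates 1 and 3 (0.07). Tnf held 0.680, 1.47 and 0.290 CPM in control, 0.117, 0.363 and 0.188 CPM in low, 0.263, 0.122 and 0.125 CPM in medium, and 0.333, 0.752 and 0.349 CPM in high. Its slope of -0.58 ± 0.72 was 0.34 without control replicate 2. Slamf8, a SLAM family receptor of macrophages, held 0.831, 0.816 and 0.312 CPM in control, 0.234, 0.335 and 0.265 CPM in low, 0, 0.153 and 0.234 CPM in medium, and 0.324, 0.493 and 0.206 CPM in high. Its lowest group was medium and its slope -0.84 ± 0.80. With 3 counts worth 0.0426 to 0.0833 CPM, Tnf and Slamf8 rested on few reads.

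Some named genes had their highest mean at a middle dose. Alas1 (ENSMUSG00000032786), the rate-limiting enzyme of haem synthesis, stood at 128, 82.5 and 69.3 CPM in control, 196, 238 and 357 CPM in low, 350, 374 and 386 CPM in medium, and 215, 360 and 239 CPM in high. All treated libraries lay above all controls, by 1.5, 1.99 and 1.54 log2. The slope among the treated was -0.11 ± 0.56, so the pattern was a step upward with a crest at medium. Its departure had an edgeR adjusted p of 1.00 and a DESeq2 adjusted p of 0.0114.

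Tcim, a small regulator of Wnt and NF-κB responses, followed with 18.9, 15.4 and 9.81 CPM in control, 41.6, 47.1 and 74.5 CPM in low, 87.0, 46.6 and 151.8 CPM in medium, and 57.3, 87.5 and 84.0 CPM in high. Again the treated libraries did not overlap the controls. Plin5, a coat protein of lipid droplets in oxidative tissue, was at 1.69, 2.67 and 2.09 log2, and Chd9, a chromatin remodeller, at 1.52, 3.26 and 2.28, although high replicate 1 held 67.7 CPM of Chd9 against 42.3 to 63.4 CPM in control. Il6ra, the receptor subunit for IL-6, held 7.98, 7.72 and 9.63 CPM in control, 9.95, 11.7 and 23.5 CPM in low, 28.9, 26.3 and 28.1 CPM in medium, and 19.4, 21.0 and 30.3 CPM in high. In the same list Socs3, which STAT3 induces and which dampens IL-6 signals, had a slope of -1.23 ± 0.41, opposite to that of Cebpd and Il6ra (1.45 ± 0.45).

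Mpzl3, Zmat1 and Arhgef26, an exchange factor for RhoG, peaked at medium with 1.06, 1.56 and 1.75 log2. Dvl2, a transducer of Wnt signals, instead peaked at low (1.01 ± 0.23) and was back at 0.23 ± 0.23 at high. Its 6 low and medium libraries, at 6.74 to 10.0 CPM, lay above all controls and high libraries (3.85 to 6.19 CPM), as in 12 of 16839 genes (0.0713%). Cyp3a44 and Cyp3a16, a pair of near-identical cytochrome P450 genes between which counting could split reads, were troughs at low (-2.99 and -4.86 log2) and are therefore uncertain. Fbxl2 was a trough by its means, but control replicate 3 alone held 18.1 CPM of it against at most 3.15 CPM in the other 11 libraries. Itgb2, the β2 chain of leukocyte integrins, was at -1.65, -1.11 and -0.60.

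**Figure D2:**
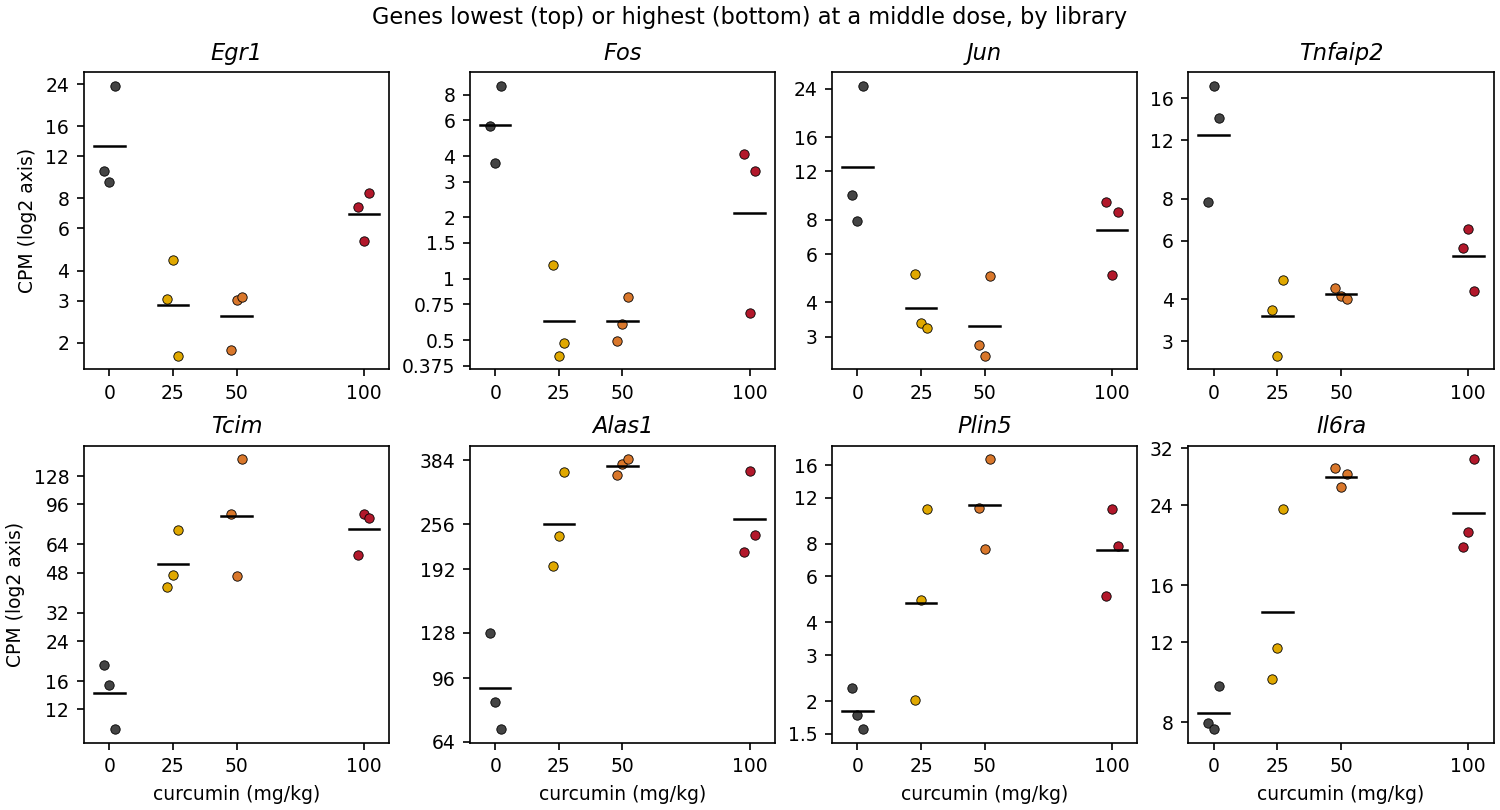
Expression by library (dots, CPM on a log2 axis) against curcumin dose, with the geometric mean of each group as a bar. In the top row (Egr1, Fos, Jun and Tnfaip2) low and medium libraries lie below all controls, and in the bottom row (Tcim, Alas1, Plin5 and Il6ra) medium holds the highest mean.

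Genes of stress responses and of glucose and nitrogen metabolism held several members with upward slopes. Of 27 genes of the unfolded protein and integrated stress responses, 10 stepped upward at every dose (6.82% of all genes) and 9 had an unadjusted p under 0.05 for a higher slope (6.51% of all genes), with a median slope of 0.48. Next to Ddit4 these were led by Herpud1, of the machinery that degrades proteins of the endoplasmic reticulum, at 0.63, 0.91 and 1.11 log2. The co-chaperones Dnajc3 and Dnajb9 followed, with slopes of 1.16 ± 0.38 and 0.99 ± 0.34. The median was 0.16 with the covariate and 0.22 without high replicates 1 and 3. With the covariate 3 members had a higher slope at such a p (393 of 16839 over all genes).

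Of 24 genes of gluconeogenesis and insulin response, 6 had a higher slope at an unadjusted p under 0.05 and 0 a lower one (6.51% and 4.49% of all genes). With the covariate 6 were higher (393 of 16839 over all genes). The median slope of 0.17 was 0.26 with the covariate and 0.45 without high replicates 1 and 3. Foxo1, the transcription factor that insulin shuts out of the nucleus, stood at 7.65, 6.59 and 6.33 CPM in control, 8.23, 10.4 and 16.5 CPM in low, 14.5, 14.0 and 18.5 CPM in medium, and 14.4, 19.5 and 18.6 CPM in high. All treated libraries lay above all controls. Its slope was 1.25 ± 0.30. Pfkfb3, a regulator of glycolysis, was at 1.53, 1.29 and 2.23 log2, and the aminotransferases Got1 and Gpt2 had slopes of 1.27 ± 0.39 and 1.02 ± 0.36. Igfbp1, an insulin-repressed binding protein, was at 0.10, -1.0 and 1.41. The members named here did not follow a single curve.

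In the urea cycle and periportal list, 6 of 15 genes had a higher slope at an unadjusted p under 0.05 (6.51% of all genes). With the covariate 6 were again higher (393 of 16839 over all genes) and 2 were lower at such a p. The number higher was 3 without control replicate 2. The median slope of 0.69 was 0.02 with the covariate and 0.21 without high replicates 1 and 3. Ass1, which joins citrulline and aspartate, stood at 190, 151 and 105 CPM in control, 141, 119 and 346 CPM in low, 404, 225 and 316 CPM in medium, and 775, 403 and 327 CPM in high. Medium and high libraries lay above all controls, with a slope of 1.78 ± 0.44 (edgeR adjusted p = 0.341; DESeq2 adjusted p = 0.0126). Asl, the next enzyme, was at 0.23, 0.71 and 0.75 log2, and Cps1, which makes carbamoyl phosphate, at 0.19, 1.04 and 0.80. The ornithine carrier Slc25a15 had a slope of 0.82 ± 0.26. Sds, which deaminates serine, peaked at medium with 1.60 log2.

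**Figure D3:**
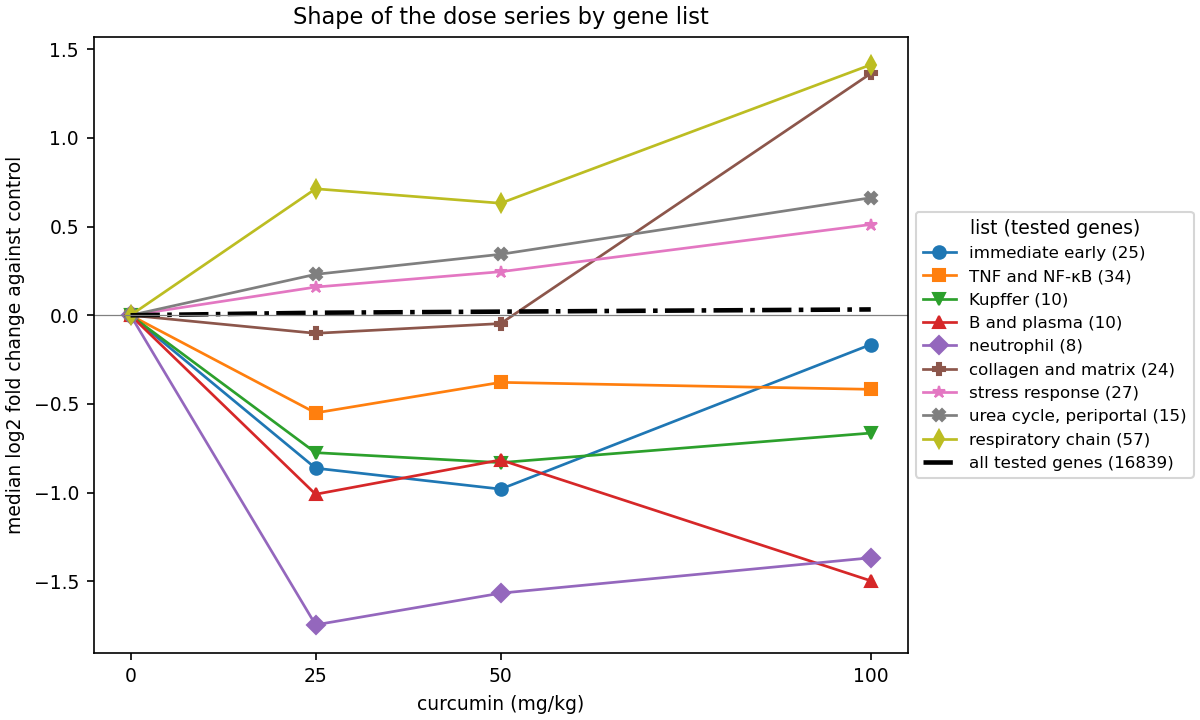
Median log2 fold change against control at each curcumin dose (mg/kg) over the tested genes of 9 lists and over all tested genes, with the number of genes in brackets. Immediate early genes dip at the middle doses, the median of collagen and matrix genes lies near 0 up to 50 mg/kg and at 1.36 at 100 mg/kg, and the stress and urea cycle lists step upward.

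Collagen and matrix genes had medians near control up to 50 mg/kg and above it at 100 mg/kg, but libraries of each treated group were split. Of 24 tested, 23 had a slope above 0 (52.4% of all genes) and 13 a higher slope at an unadjusted p under 0.05 (6.51%). The median slope was 1.31. The median differences were -0.10, -0.05 and 1.36 at the 3 doses. All 24 lay above every control in high replicate 1 and 17 in high replicate 3 (37.5% and 33.0% of all genes), but 4 did so in high replicate 2 (26.0%) and 10 lay below every control there. The other doses were split too: 13 lay above every control in low replicate 3 and 13 in medium replicate 1 (33.3% and 32.3%), whereas 13 in low replicate 2 and 11 in medium replicate 3 lay below (24.9% and 21.7%). The median slope was 0.06 with the covariate and -0.21 without high replicates 1 and 3, and the 13 members with an unadjusted p under 0.05 numbered 3 without high replicate 1. Col1a1, a chain of type I collagen, shows the split: it held 2.24, 5.47 and 4.24 CPM in control, 1.99, 0.894 and 5.69 CPM in low, 4.74, 4.22 and 1.29 CPM in medium, and 28.9, 1.79 and 11.1 CPM in high. Dcn, the proteoglycan decorin, held 12.8 to 15.2 CPM in control and 68.4, 19.6 and 51.5 CPM in high. Postn, a matricellular protein of myofibroblasts, was less split, at 3.15, 2.40 and 2.84 CPM in high and 1.01 to 1.74 CPM in control. Ccn2, a target of TGF-β, likewise held 3.61, 1.76 and 3.28 CPM in high and 0.287 to 1.06 CPM in control, with a slope of 2.07 ± 0.42 (edgeR adjusted p = 0.291).

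Markers of stellate cells had a summed level of 62.9 to 78.9 CPM in control and 63.4 to 239.8 CPM in high. Their slopes were above 0 in 16 of 18 (52.4% of all genes). The median slope of 0.67 was -0.19 with the covariate and -0.43 without high replicates 1 and 3. In whole liver, more cells of a type and more RNA per cell cannot be told apart. Recruited macrophage markers lay in the same libraries: their sum was 21.7 to 45.4 CPM in control and 23.7 to 80.2 CPM in high, and their median slope of 0.75 was -0.58 without high replicates 1 and 3. Hepatocyte markers summed to 6443 to 12620 CPM in control and 5998 to 47440 CPM in high. Their median slope of 1.08 was -0.35 with the covariate and -0.10 without high replicates 1 and 3. Markers of several cell types thus lay higher together in the libraries with the lower mitochondrial share. The part of that share in the matrix result was not tested beyond the covariate fit.

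The nuclear-encoded genes of the respiratory chain gave the most uniform slopes. All 57 were above 0 (52.4% of all genes), 31 with an unadjusted p under 0.05 (6.51%), and 26 stepped upward at every dose (6.82%). The median slope was 1.32 against -0.73 for the 15 mitochondrially encoded genes. Ndufa4 and Cox8a, small subunits of cytochrome c oxidase, had slopes of 1.85 ± 0.59 and 1.84 ± 0.59. Cox8a held 10.4, 10.5 and 9.74 CPM in control and 86.9, 13.4 and 27.1 CPM in high. All 57 members lay above every control in high replicate 1, 53 in high replicate 3 and 9 in high replicate 2 (37.5%, 33.0% and 26.0% of all genes), where 21 lay below every control. In low replicate 3 and medium replicate 1, whose mitochondrial shares of 43.0% and 48.3% were the lowest of their groups, 55 and 56 members lay above (33.3% and 32.3% of all genes). The list's median was -0.18 with the covariate and 0.11 without high replicates 1 and 3, and 0 and 1 members had an unadjusted p under 0.05 for a higher slope there. Without high replicate 1 that number was 0, and it was 12 and 10 without control replicates 2 and 3. Of 77 ribosomal protein genes, 76 had a slope above 0 (52.4% of all genes). Their median of 0.97 was -0.18 with the covariate and -0.17 without high replicates 1 and 3. Only 2 of them stepped upward at every dose, and in 46 all low libraries lay above all controls (7.41% of all genes), where 7 of the 57 respiratory chain genes did. Of 34 proteasome genes, 33 were above 0 (52.4% of all genes) with a median of 0.52 (0.04 and 0.10 in those 2 fits).

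**Figure D4:**
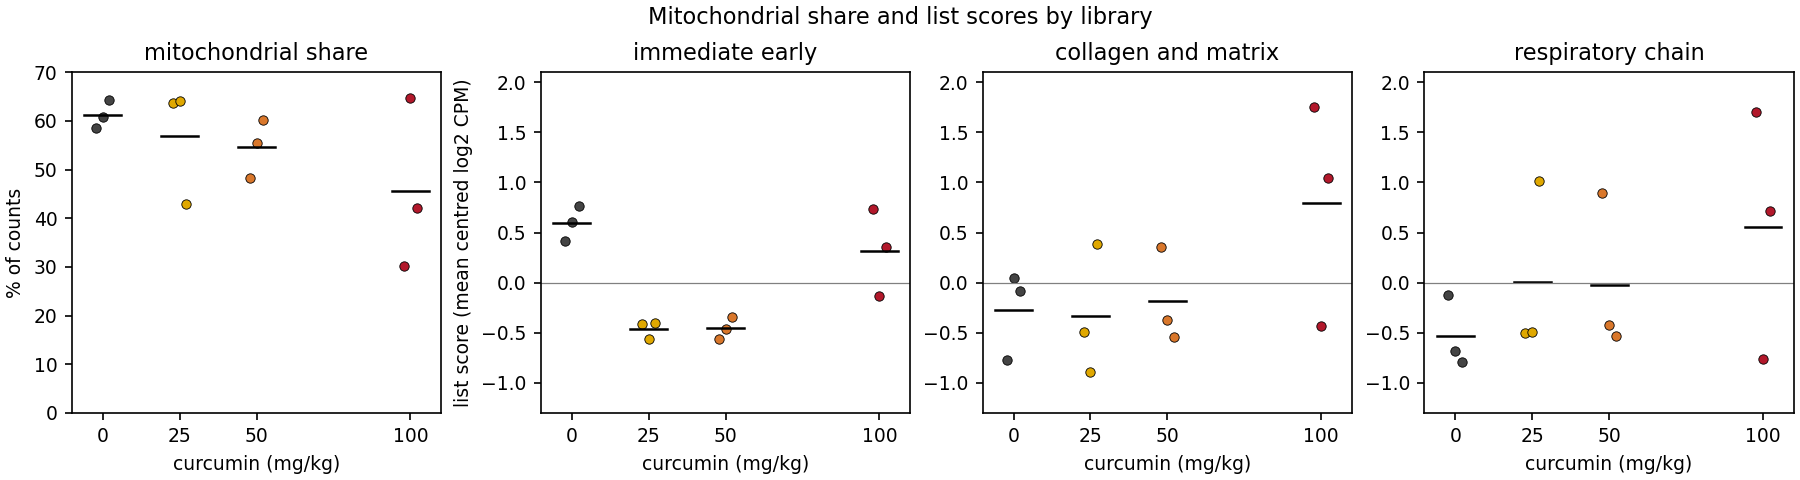
Share of counts on mitochondrial genes (left) and the scores of 3 lists (mean over members of log2 CPM centred per gene) by library against curcumin dose, with group means as bars. High replicates 1 and 3 have the lowest mitochondrial share of their group and the highest matrix and respiratory chain scores, and the immediate early score separates low and medium from the other groups.

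Xenobiotic and antioxidant genes gave no common course. Of 35 cytochrome P450 genes, 27 had a slope above 0 (52.4% of all genes), with a median of 0.45 (-0.27 with the covariate). At an unadjusted p under 0.05, 3 were higher and 1 lower (6.51% and 4.49% of all genes). Cyp2e1, which activates carbon tetrachloride, was at 0.46, 0.70 and 1.11 log2, with 238, 153 and 299 CPM in control and 847, 318 and 329 CPM in high. Cyp2b10, a target of the receptor CAR, was at 0.92, 1.69 and 1.68 but held at most 3.04 CPM. Of 29 NRF2 genes, 7 had a higher slope at an unadjusted p under 0.05 and 1 a lower one (6.51% and 4.49% of all genes). The median of 0.60 over the list was -0.32 with the covariate and -0.39 without high replicates 1 and 3. The number higher was 0 without high replicate 1, 4 without control replicate 2 and 2 without control replicate 3. Gsta4, Prdx1 and Gstm2 were among these, with slopes of 1.53 ± 0.58, 1.32 ± 0.50 and 1.96 ± 0.77. The opposite was seen for Osgin1, an NRF2-responsive growth inhibitor, with 43.0, 89.8 and 196 CPM in control and 36.9, 26.8 and 19.7 CPM in high (slope -1.88 ± 0.49). Hmox1, haem oxygenase 1, was a trough at -0.55, -0.91 and -0.12.

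Markers of B cells, Kupffer cells and neutrophils were mostly lower, with control replicate 2 standing apart. Recruited macrophage markers, given above, went the other way, with 7 of 9 slopes above 0 (52.4% of all genes). Of 10 B and plasma cell markers, 6 had a lower slope at an unadjusted p under 0.05 (4.49% of all genes). With the covariate 6 again did (599 of 16839 over all genes). The median slope was -1.3, and -0.90 without control replicate 2 and -1.23 without high replicates 1 and 3. Ms4a1, the CD20 antigen, held 1.76, 2.96 and 1.00 CPM in control, 1.33, 1.12 and 0.541 CPM in low, 1.07, 1.15 and 1.14 CPM in medium, and 0.417, 0.634 and 0.602 CPM in high. Cd22, an inhibitory receptor of B cells, was at -1.17, -1.15 and -1.90 log2, Pax5, the B lineage factor, at -1.01, -1.16 and -1.98, and Ighd, the IgD heavy chain, at -1.35, -0.90 and -1.64. Jchain, which joins secreted IgM and IgA in plasma cells, ran against them at -0.50, -0.46 and 1.52, with 5.09, 2.37 and 5.64 CPM in high and 0.650 to 2.39 CPM in control. Slopes above 0 were found in 3 of the 10 markers, 1 of them at an unadjusted p under 0.05 (6.51% of all genes). The summed level of the list was 34.2 to 70 CPM in control, 14.2 to 30.5 CPM in low, 23.5 to 29.9 CPM in medium and 23.9 to 43.7 CPM in high. The sum thus did not fall from low to high, and high overlapped control. In no group was any of the 10 markers at 0 throughout.

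Kupffer cell markers had median differences from control of -0.77, -0.83 and -0.66 log2 at low, medium and high. Of 10, 8 were troughs and 4 had an unadjusted departure p under 0.05 (19.3% and 3.6% of all genes). The median slope of -0.54 was 0.14 with scaling by library totals, below the 0.75 of all genes. Without control replicate 2 the median slope was -0.23 and the departures 2. Their sum was 100.3 to 178 CPM in control, 71.7 to 86.1 CPM in low, 81.0 to 88.0 CPM in medium and 86.1 to 88.9 CPM in high, so that all treated libraries lay below all controls. Clec4f, a lectin particular to these cells in mouse, held 54.0, 60.9 and 29.1 CPM in control and 15.1 to 32.3 CPM in the treated. Cd5l, a secreted macrophage protein, was at -1.10, -1.22 and -0.73 log2. Marco, a scavenger receptor, held 26.6 CPM in control replicate 2 against 1.03 and 1.52 CPM in the other controls.

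The 8 tested neutrophil markers all had a slope below 0 (47.6% of all genes), with a median of -1.10. Without control replicate 2 the median was -0.31 and 3 of the 8 slopes were above 0. These markers rested on few reads. Of the 10 in the list, 4, 1 and 3 were at 0 in control replicates 1, 2 and 3. The numbers were 6, 7 and 2 in low, 3, 5 and 4 in medium, and 1, 4 and 3 in high. S100a9, an abundant neutrophil calcium-binding protein, held 3.55, 10.1 and 3.63 CPM in control, 2.50, 2.63 and 2.05 CPM in low, 1.46, 1.84 and 2.52 CPM in medium, and 2.41, 1.76 and 2.03 CPM in high. Its treated libraries all lay below the controls with no grading among them. Of 31 interferon response genes, 25 had a slope below 0 and 23 zigzagged (47.6% and 48.3% of all genes), with medians of -0.58, -0.28 and -0.58 at the 3 doses. The median slope of -0.40 was 0.22 with scaling by library totals, below the 0.75 of all genes, and -0.18 without control replicate 2. Mx1, an antiviral GTPase, was at -1.67, -0.37 and -1.58, so that low and high lay together and medium near control. T and NK cell markers had 0 of 12 members at an unadjusted p under 0.05 (11% of all genes). Their median slope of -0.23 was 0.16 without control replicate 2.

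**Figure D5:**
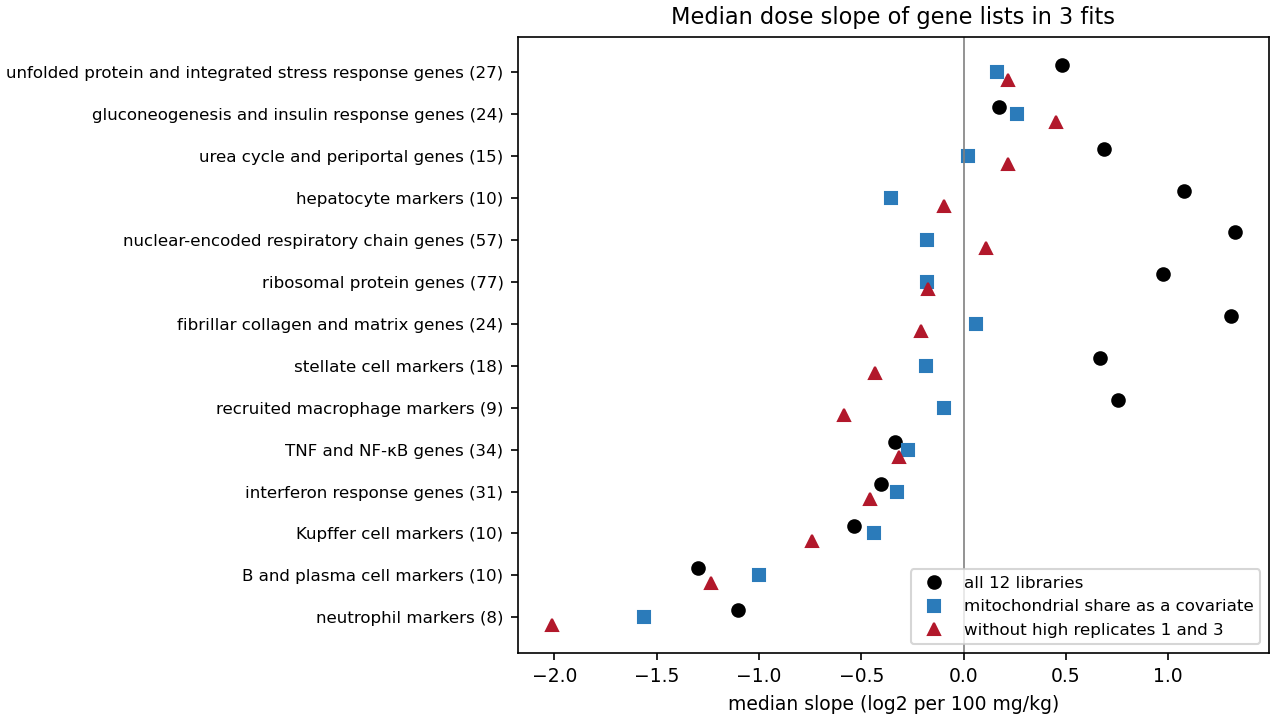
Median dose slope (log2 per 100 mg/kg) of 14 gene lists in the fit to all 12 libraries, with the mitochondrial share as a covariate, and without high replicates 1 and 3, with tested genes in brackets. Medians of the hepatocyte, respiratory chain, ribosomal, matrix, stellate and recruited macrophage lists drop to near or below 0 in the latter fits, while those of the TNF and NF-κB, interferon, Kupffer and B cell lists stay below 0 in all 3.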

How the data were processed

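Gene counts of the 12 liver libraries were used as the authors deposited them, in 1 table of 56923 genes. The submitters' processing notes name fastp 0.23.4, STAR 2.7.10b, StringTie 2.2.1 and build mm39; the counting step, its strand setting and its treatment of reads with several matches are not given in the sources used here, so genes with near-identical copies, overlapping genes and antisense partners are uncertain. RNA was total RNA isolated with TRIzol, per the labels. Symbols were matched by gene ID to a GRCm38 annotation used for names alone (52073 IDs, 91.5%; IDs without a symbol held 0.812% of counts), and no coordinates are given. BLAST+ 2.17.0 found 11 nuclear copies of the 37 mitochondrial genes (at least 95% identity over 80% of the length).

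Counts were scaled by TMM and filtered with filterByExpr over the 4 groups (16839 genes) in edgeR 4.0.16 under R 4.3.3. Robust quasi-likelihood fits gave the slope on dose, the departure from a line (quadratic and cubic terms together), the difference among 4 doses, and the slope among treated libraries, with Benjamini-Hochberg adjustment over all genes and a threshold of 0.05. CPM are counts divided by TMM-scaled library sizes, and log2 CPM used a prior count of 2. DESeq2 1.42.0 and limma 3.58.1 voom, other scalings, no filter, other dose codings, the mitochondrial share as a covariate, a replicate block and leaving out each library were alternatives. The fit without high replicates 1 and 3 was chosen after seeing the data. The lowest chi-square per degree of freedom between libraries of 1 group was 42.0, so that no pair of libraries was alike within sampling noise. Each ± value is the SE of a fitted coefficient, taken as the absolute log2 value divided by the square root of the quasi-likelihood F. It gives the precision of the fit and not the spread between libraries. The labels call these samples biological replicates. A level of 3 counts was worth 0.0426 to 0.0833 CPM.

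Genes named were the 12 with the smallest slope p in each direction and the 8 peaks and 8 troughs with the smallest departure p (mean log2 CPM of at least 1, with a symbol that is no predicted locus, immunoglobulin or T cell receptor segment, mitochondrial gene or copy), 5 genes taken whatever their values (Nfkb1, Nfkbia, Rela, Slamf8, Tnf), and from each list described at most 4 genes by slope p and 3 by departure p. Klf2 and Rgs1 fall outside this rule. The 44 lists and the subject were chosen with earlier results of these data known. The slope and departure tests were tested on simulated data (200 changed genes).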

Additional observations from a re-analysis of the deposited data

How the results depend on the processing

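Over all alternatives edgeR's slope test called 0 genes, except for 1 gene with any curcumin against none, and DESeq2 called 64. Departures numbered 22 in DESeq2 and 0 to 2 with 1 library left out (2 without low replicate 3, and 1, Fos, without high replicate 2). Differences among the 4 doses numbered 161 in DESeq2, 65 in limma voom, 2 without high replicates 1 and 3, and 0 to 1 with 1 library left out. Slopes among the treated numbered 5 in DESeq2 and 1 without high replicates 1 and 3. At an unadjusted p under 0.05, genes higher with dose numbered 3399 with library totals, 2495 with no filter, 393 with the mitochondrial share as a covariate, 590 without high replicates 1 and 3, and 465 (without high replicate 1) to 2340 (without high replicate 2) with 1 library left out. They numbered 674 without control replicate 3 and 1833 without low replicate 3. Genes lower numbered 48 with library totals, 1669 with no filter, and 530 to 1676 (without high replicate 2) with 1 left out. Unadjusted departures numbered 183 with library totals, 2571 in limma voom, 1429 with the covariate, and 399 (without medium replicate 3) to 1182 (without high replicate 2). Means stepping upward numbered 4307 with library totals and 683 (without medium replicate 1) to 1369 with 1 left out, those stepping downward 119 and 675 (without medium replicate 1) to 1175, and zigzags 15337 with no filter. Of the 1046 genes stepping downward, 109 did so with library totals. The cause of these differences was not tested. Signs were compared gene by gene for the 12 genes of each slope ranking and the 5 genes taken whatever their values. Among these, the sign was opposite for Tnnt3 (-0.96 without high replicates 1 and 3) and Tnf (0.34 without control replicate 2, range with 1 library left out -1.24 to 0.34). It was also opposite for Nfkb1 (0.36 with library totals) and Rela (0.43 with library totals, 0.14 with the covariate, 0.069 without high replicates 1 and 3). Of the 1097 genes higher in the fit to all libraries, 863 (78.7%) kept their sign with the covariate and 812 (74.0%) without high replicates 1 and 3. With the replicate number as a block 0 slopes were called, and 733 genes were higher and 809 lower at an unadjusted p under 0.05. Deviations of the 18 pairs of same-numbered libraries correlated at -0.498 to 0.651 (median -0.0678, 8 over 0.1), and the median of the 36 other pairs was 0.0095. Of 12 libraries, 6 correlated best with their own number. The main fit did not treat the numbers as pairs, and whether they mark pairs was not tested further. The floor of 3 counts, 0.0426 to 0.0833 CPM, limits Tnf and Slamf8 most.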

Other observations

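The p53 targets and the cell cycle genes had members with slopes in both directions. Trp53inp1, a p53 target that takes part in autophagy, held 28.2, 12.0 and 9.32 CPM in control, 18.6, 11.1 and 26.5 CPM in low, 29.8, 22.9 and 31.1 CPM in medium, and 36, 44.5 and 52.2 CPM in high, with all high libraries above all other libraries and a slope of 1.49 ± 0.36 log2 per 100 mg/kg. Bbc3 and Fas, p53 targets that promote cell death, had slopes of -1.09 ± 0.30 and -0.62 ± 0.23, and the median of the 20 tested p53 targets was 0.03. Among 35 cell cycle genes 17 slopes were above 0 and 18 below. At an unadjusted p under 0.05, 2 were higher and 4 lower (6.51% and 4.49% of all genes). Cenpa, the centromeric histone, was at -0.41, -0.90 and -1.06 log2 at the 3 doses, and E2f2, a factor of the G1 to S transition, at -1.20, -1.48 and -1.80.

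Among 20 circadian clock genes, 8 peaked and 5 dipped at a middle dose (19.3% and 19.3% of all genes). Per1, a repressor of the clock that glucocorticoids and feeding also induce, held 27.2 to 35.6 CPM in control and 43.2 to 96.0 CPM in the treated libraries, with no overlap. Nfil3, a clock-driven repressor, had a slope of -0.83 ± 0.28, and Nr1d1, the receptor REV-ERBα, was at -1.07, -0.90 and -0.72 log2. The hour of collection is not given in the labels, and its part in these values was not tested. Lpin1, a phosphatidate phosphatase and co-activator induced by fasting, held 25.2, 18.4 and 17.2 CPM in control, 26.4, 32.4 and 174 CPM in low, 131, 136 and 141 CPM in medium, and 80, 147 and 193 CPM in high, so that all treated libraries lay above all controls. Of the heat shock and chaperone genes, 16 of 19 had a slope above 0 (52.4% of all genes), among them Ahsa1, a co-chaperone of HSP90, at 0.98 ± 0.29. The median slope of that list was 0.51, and 0.23 with the mitochondrial share as a covariate. All 7 erythroid markers had a slope below 0 (47.6% of all genes). Their sums were 174.9 to 1359 CPM in control and 238.4 to 380.6 CPM in low. They were 119.5 to 1397 CPM in medium and 156.3 to 201.6 CPM in high. The near-identical globin genes among these markers are uncertain. No gene of these lists passed edgeR's slope test after adjustment over all genes (0 of 16839, with 1853 at an unadjusted p under 0.05 and 64 called by DESeq2).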
